A study of Mus musculus with 20 samples.

Results

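The expression of NRF2, its inhibitor KEAP1 and 8 of their classical target genes was followed in PyMT breast tumors and tumor cells with and without the lysosomal protease cathepsin D (CTSD). These 10 genes (Nfe2l2, Keap1, Hmox1, Nqo1, Gclc, Gclm, Txnrd1, Srxn1, Gsta4 and G6pdx) were chosen by name, as known members of the pathway, from the 45706 genes that were counted. The choice was made with earlier results of these data known. All 10 passed the filter on low counts, both among the 18617 genes tested in tumors and among the 15178 genes tested in cells.

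NRF2, the product of Nfe2l2, is a transcription factor of the basic leucine zipper family. In unstressed cells KEAP1 binds NRF2 and hands it to a ubiquitin ligase for degradation, and oxidants or electrophiles modify KEAP1 so that NRF2 accumulates, pairs with a small MAF protein and binds antioxidant response elements near its target genes. The targets make glutathione, reduce thioredoxin and sulfiredoxin substrates, detoxify quinones and aldehydes, break down heme and supply NADPH. NRF2 is regulated mainly through protein stability, so the mRNA level of Nfe2l2 is not a measure of its activity.

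RNA sequencing covered 8 tumors and 12 cell samples in 6 groups of mouse samples. The tumors came from 18-week-old PyMT mice, which carry the polyoma virus middle T oncogene under the MMTV promoter on a C57BL/6N background, and comprised 4 from control animals (labeled wild type) and 4 from MMTV-cre;Ctsd-/- animals. The controls had functional Ctsd and no cre, so the presence of cre and the loss of Ctsd cannot be told apart. Here cre is driven by the MMTV promoter, which is active in mammary epithelium, so stromal cells of these tumors keep Ctsd. The cells were immortalized lines grown from the tumors of 1 Ctsd+/+ and 1 MMTV-cre;Ctsd-/- PyMT mouse, kept in medium with 1% fetal calf serum for 10 days (1% FCS) or for 12 weeks (1% FCS LT, long-term), with 3 cultures per group. With 1 line per genotype, Ctsd genotype and cell line cannot be told apart, and the spread between cultures does not include differences between lines.

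The counts assigned to genes ranged from 49725437 to 64291587 per tumor and from 33622831 to 40239762 per cell sample, and levels are given as CPM, a gene's counts divided by the normalized total of its sample and scaled to the same nominal depth. Ctsd was at 1781 to 2617 CPM in control tumors and at 360.2 to 1295 CPM in MMTV-cre;Ctsd-/- tumors. In cells it was at 1267 to 4199 CPM in the 6 Ctsd+/+ samples and at 114 to 192 CPM in the 6 Ctsd-/- samples, and reads from outside the deleted part of the gene stay in these counts. Marker genes of other cell types differed between groups. The summed level of 8 fibroblast markers was 1178 to 3310 CPM in the 3 1% FCS Ctsd+/+ samples and 3.05 to 99.8 CPM in the other 9 cell samples, and that of 9 epithelial markers was 1071 to 2223 CPM in the same 3 samples and 6192 to 13112 CPM in the others. In tumors, 8 white adipocyte markers summed to 407 to 4117 CPM in controls and to 2896 to 17579 CPM in MMTV-cre;Ctsd-/- animals, and 10 macrophage markers to 845 to 2120 CPM and 1025 to 2024 CPM. The 3 1% FCS Ctsd+/+ samples are the whole of their group, so comparisons with it cannot be given without them. In such bulk samples fewer cells of a type and less RNA per cell cannot be told apart. A numeric code in the descriptions, whose meaning the labels do not give, follows the genotype of the tumors, and 8 of the 12 cell samples share 1 code.

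**Figure D1:**
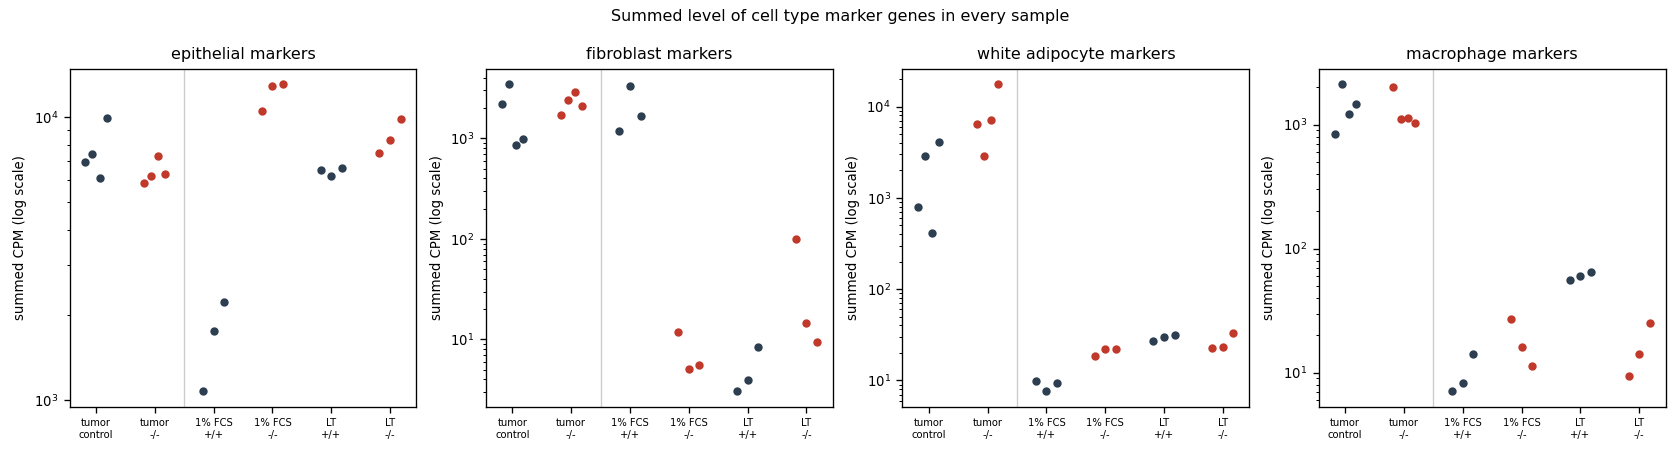
Summed CPM (log scale) of epithelial, fibroblast, white adipocyte and macrophage marker genes in each of the 8 tumors and 12 cell samples; each point is 1 sample, dark for control or Ctsd+/+ and red for Ctsd-/-. The 3 1% FCS Ctsd+/+ cell samples stand apart, with epithelial sums of 1071 to 2223 CPM and fibroblast sums of 1178 to 3310 CPM.

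The antioxidant response element was looked up in the promoters of these genes, since the genes were grouped as targets of 1 factor. Its core was searched as TGACNNNGC on both strands of the RefSeq promoter windows (GRCm38.p6, 250 bases before to 50 after each RefSeq start). Windows were matched for 7 of the 10 genes (not Hmox1, Gclc and Gsta4), 9 windows in all, and 5 genes had a match: Nfe2l2, Gclm, Txnrd1, Srxn1 and G6pdx. Of all 32851 windows of this length 12.4% had a match, as did 13.99% of the 27025 genes with a window. A match is a description of letters in a window and not evidence of binding, and elements farther upstream are outside these windows. The bases before the start are given here for the gene of the factor itself, for 2 genes whose RNA differed between long-term cell lines and carry a match (Gclm and G6pdx), and for Nqo1, which differed as well and has none; each is printed from 5′ to 3′ on the gene's strand and capitals mark the match.
Nfe2l2, chr2:75704664-75704913, minus strand: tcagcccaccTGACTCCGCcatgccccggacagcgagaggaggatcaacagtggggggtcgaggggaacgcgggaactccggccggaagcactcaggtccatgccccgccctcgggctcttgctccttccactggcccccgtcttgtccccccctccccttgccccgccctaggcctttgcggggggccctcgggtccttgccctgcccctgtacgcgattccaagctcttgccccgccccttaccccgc
Nqo1, chr8:107403206-107403455, minus strand: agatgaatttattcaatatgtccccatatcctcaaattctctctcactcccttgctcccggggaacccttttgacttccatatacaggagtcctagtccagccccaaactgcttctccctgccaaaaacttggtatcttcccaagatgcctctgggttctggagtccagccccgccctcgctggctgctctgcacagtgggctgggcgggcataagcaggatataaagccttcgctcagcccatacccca
Gclm, chr3:122245307-122245556, plus strand: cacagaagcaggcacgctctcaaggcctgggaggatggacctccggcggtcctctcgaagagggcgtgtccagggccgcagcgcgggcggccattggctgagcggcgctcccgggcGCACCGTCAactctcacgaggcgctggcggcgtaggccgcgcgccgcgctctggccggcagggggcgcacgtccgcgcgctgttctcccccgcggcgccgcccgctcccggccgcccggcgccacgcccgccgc
G6pdx, chrX:74428881-74429130, minus strand: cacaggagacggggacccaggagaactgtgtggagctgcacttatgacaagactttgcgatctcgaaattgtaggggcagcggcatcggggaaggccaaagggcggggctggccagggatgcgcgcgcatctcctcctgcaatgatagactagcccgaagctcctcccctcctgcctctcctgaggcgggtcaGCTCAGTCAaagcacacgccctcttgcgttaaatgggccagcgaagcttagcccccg
Counted from the RefSeq start, the match began at base -240 in Nfe2l2, on the gene's strand, and at bases -134 and -57 in Gclm and G6pdx, on the opposite strand. A RefSeq start can differ from that of the gene span given below. For G6pdx it lies inside that span, as do the bases printed.

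The members did not all move in the same direction. In tumors 0 of the 10 genes passed an adjusted p of 0.05 in edgeR's quasi-likelihood test, against 0.00537% of all genes tested, and DESeq2 and limma-voom gave 0 as well. At the unadjusted p of 0.1 that was applied to the tumors, 2 had higher values in MMTV-cre;Ctsd-/- tumors (Keap1 and G6pdx, both also under 0.05), against 8.44% of all genes, and 0 had lower ones, against 8.27%. In 1% FCS cells 3 genes (adjusted p under 0.05) were lower in the Ctsd-/- line than in the Ctsd+/+ line (Nqo1, Gclc and Gsta4), against 25.1% of all genes, and 0 were higher, against 23.5%; 0 were higher in DESeq2 and limma-voom too, and 1 (Txnrd1) had an unadjusted p under 0.05. In 1% FCS LT cells 3 genes were lower (Nqo1, Gclc and G6pdx), against 19.1% of all genes, and 1 was higher (Gclm), against 20.5%. With 3 or 4 of 10 genes called, the members' share was below that of all genes at 1% FCS and near to it at 1% FCS LT.

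Over culture time 3 genes were higher after 12 weeks in Ctsd+/+ cells (Nfe2l2, Keap1 and G6pdx), against 23.0% of all genes, and 0 were lower, against 23.4%, although Gclm had an unadjusted p of 0.0274 and was called lower in DESeq2 but not in limma-voom. Nqo1 (log2 fold change 0.92, unadjusted p = 0.0421) and Gsta4 (1.28, unadjusted p = 0.0486) also fell short of the adjusted threshold over time in Ctsd+/+ cells. Without replicate 1 of the long-term Ctsd+/+ group edgeR called both higher, Nqo1 at 1.29 (adjusted p = 0.00679) and Gsta4 at 1.65 (adjusted p = 0.036), as it did without a filter on low counts (adjusted p = 0.0365 and 0.0444), and Nqo1 was called in DESeq2 (adjusted p = 0.0464). In Ctsd-/- cells 0 of 10 passed an adjusted p of 0.05 in edgeR, against 1.57% of all genes that were higher and 0.810% that were lower, although 3 had an unadjusted p under 0.05 (Nqo1, Gclc and Gsta4), and DESeq2 called 1 (Gsta4) and limma-voom 0. The genotype difference itself differed between the culture times for 1 gene, G6pdx, toward lower values in Ctsd-/- cells, against 14.1% of all genes, and in the other direction for 0, against 16.1%, where Gclm had an unadjusted p of 0.0209 and was called in DESeq2 but not in limma-voom. The 4 cell comparisons share samples, since each cell group enters 2 of them. The groups did not overlap for 3 of 10 genes in each genotype comparison of cells, against 55.2% of all genes at 1% FCS and 54.2% at 1% FCS LT. Over time they did not overlap for 5 genes in Ctsd+/+ cells, against 53.7% of all genes, and for 3 in Ctsd-/- cells, against 25.4%.

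**Figure D2:**
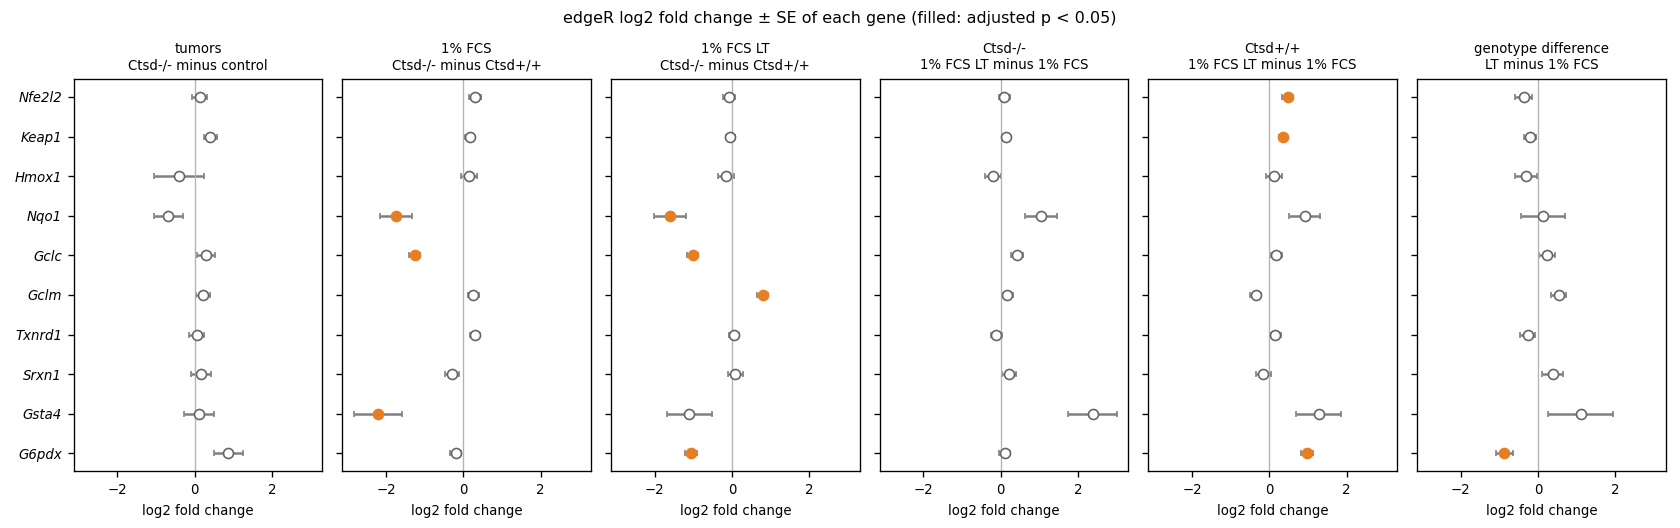
Log2 fold change (x axis) of the 10 genes (rows) in 5 comparisons and in the difference between the genotype differences at the 2 culture times, from edgeR; bars are the standard error and filled points have an adjusted p under 0.05. Nqo1 and Gclc lie to the left of 0 in both genotype comparisons of cells, whereas Gclm lies to the right of 0 in long-term cells, and no point is filled in tumors or in the Ctsd-/- line over time.

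The regulators themselves were first compared. Nfe2l2 (chr2:75675513-75704641, minus strand, GRCm38 with GENCODE M21 as for all genes here) was measured at 96.2, 93.9, 79.2 and 61.3 CPM in the 4 control tumors and at 80.6, 97.3, 92.7 and 90.8 CPM in the 4 MMTV-cre;Ctsd-/- tumors. The groups overlapped and the log2 fold change was 0.13 ± 0.19 (SE). In cells the level was 118, 116 and 110.3 CPM in 1% FCS Ctsd+/+ cultures and 167, 118 and 139 CPM in 1% FCS Ctsd-/- cultures. After 12 weeks it was 136, 153 and 189 CPM in Ctsd+/+ and 147, 134 and 172 CPM in Ctsd-/- cultures. Thus Nfe2l2 RNA was 1.39-fold higher in long-term than in short-term Ctsd+/+ cultures, with no overlap (log2 fold change 0.47 ± 0.15, adjusted p = 0.0227), whereas genotypes overlapped at 12 weeks (-0.08 ± 0.15). The call was lost without replicate 3 of the short-term Ctsd+/+ group (0.44, adjusted p = 0.0515) and without replicate 3 of the long-term one (0.33, adjusted p = 0.0984). The short-term Ctsd+/+ samples are also the ones with the high fibroblast and low epithelial marker sums, whose part in this difference was not tested.

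Keap1 (chr9:21229730-21239361, minus strand) encodes the adaptor that directs NRF2 to degradation. It was the only one of the 10 genes whose tumor groups did not overlap, which 4.15% of all genes did. The control tumors were at 54.5, 54.6, 44.9 and 41.8 CPM and the MMTV-cre;Ctsd-/- tumors at 59.5, 63.0, 69.1 and 67.9 CPM. The mean of Keap1 was 1.32-fold higher in MMTV-cre;Ctsd-/- tumors (log2 fold change 0.41 ± 0.17, unadjusted p = 0.0391), but the adjusted p was 0.555. With the white adipocyte markers as a covariate the log2 fold change was 0.30 (unadjusted p = 0.32). The gene shares 510 exon bases with the antisense gene Gm16754, and reads in this stretch may be left uncounted in tumors, where counts were made without strand. With the other count column the log2 fold change in tumors was 0.37 (unadjusted p = 0.0596).

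In cells Keap1 varied little between groups. The 1% FCS samples were at 67.8, 55.7 and 53.1 CPM in Ctsd+/+ and at 64.4, 66.7 and 66.4 CPM in Ctsd-/- cultures. Long-term cultures were at 71.7, 80.1 and 72.8 CPM and at 75.3, 76.6 and 66.7 CPM. The long-term Ctsd+/+ cultures all lay above the short-term ones (log2 fold change 0.35 ± 0.11, adjusted p = 0.0181), a call that was lost without replicate 2 or 3 of the short-term group (0.31 and 0.28) or replicate 2 of the long-term one (0.30, adjusted p of up to 0.0708 in these fits). It was also lost without a filter on low counts (adjusted p = 0.0563) and in a fit of these 2 groups alone (adjusted p = 0.0666). The genotypes overlapped at both times. At 1% FCS the genotype difference was 0.16 ± 0.11 (adjusted p = 0.229). There edgeR called Keap1 higher in Ctsd-/- cells without replicate 1 of the Ctsd+/+ group (0.28, adjusted p = 0.0434). The same held with only the samples of 1 code (0.29, adjusted p = 0.0452).

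**Figure D3:**
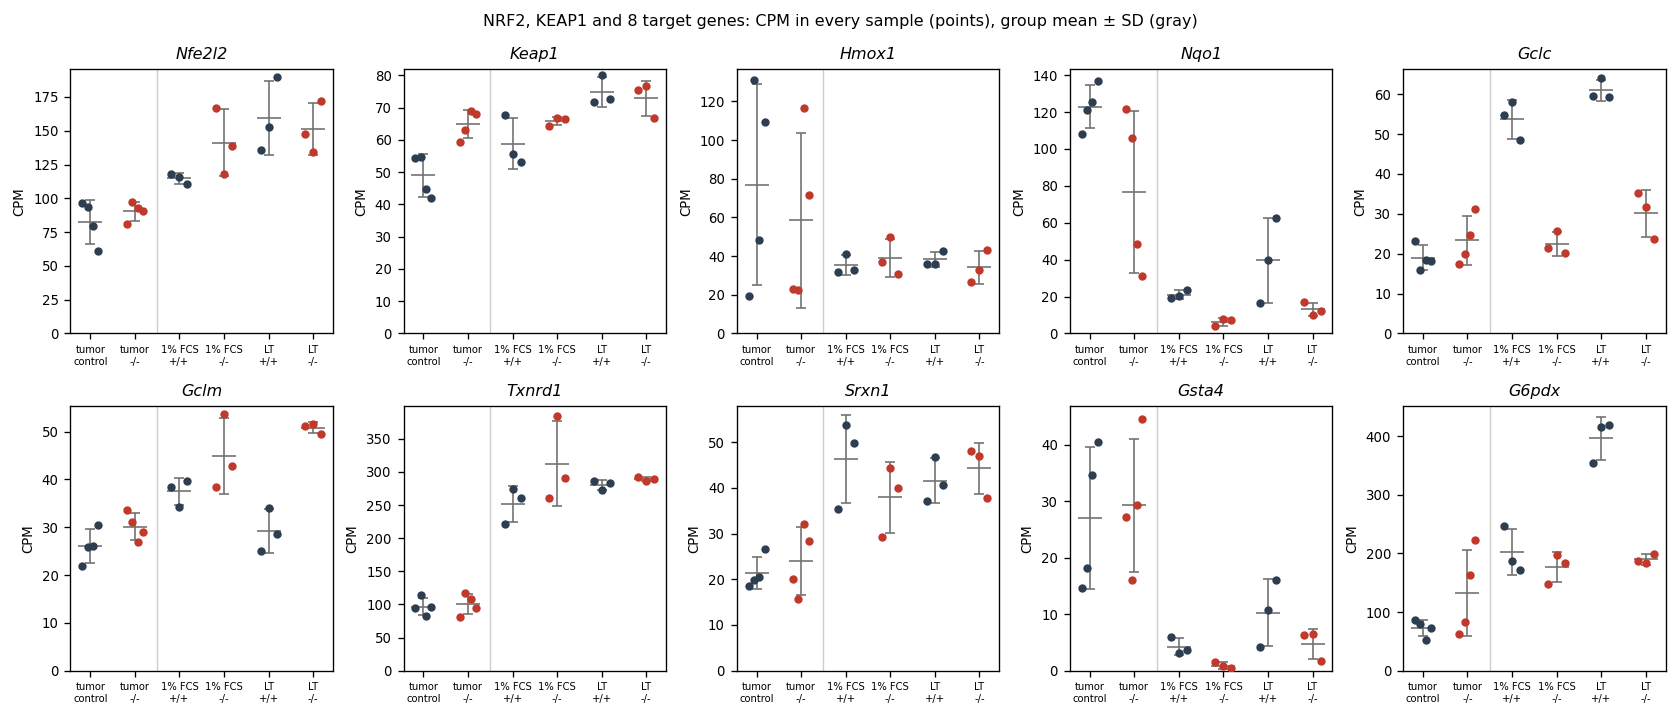
CPM (linear axis from 0) of the 10 genes in each tumor and cell sample; points are samples, dark for control or Ctsd+/+ and red for Ctsd-/-, and gray bars are the group mean and SD. Gclc and Gclm go in opposite directions between the long-term lines, G6pdx is higher in long-term Ctsd+/+ cultures than in all other samples, and Hmox1 spreads from 19.4 to 131 CPM within the control tumors.

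Gclc and Gclm encode the catalytic and the modifier subunit of glutamate-cysteine ligase, the rate-limiting enzyme of glutathione synthesis, and both are textbook NRF2 targets. The catalytic subunit Gclc (chr9:77754535-77794485, plus strand) was at 54.8, 58.0 and 48.4 CPM in 1% FCS Ctsd+/+ cells and at 21.4, 25.8 and 20.2 CPM in 1% FCS Ctsd-/- cells. In long-term cultures it was at 59.6, 64.0 and 59.2 CPM and at 35.1, 31.7 and 23.7 CPM. All 6 Ctsd-/- samples lay below all 6 Ctsd+/+ samples. Gclc was 2.39-fold lower in Ctsd-/- cells at 1% FCS (log2 fold change -1.26 ± 0.15, adjusted p = 3.57e-05) and 2.02-fold lower at 1% FCS LT (-1.01 ± 0.15, adjusted p = 0.000234). The difference between them was 0.24 ± 0.21 (adjusted p = 0.408), and both were called when only the samples of 1 code were used. The 1% FCS Ctsd+/+ samples are those that stand apart in fibroblast and epithelial markers, whose part in this and the other 1% FCS differences was not tested. Marker sums also differed between the long-term lines. Epithelial sums were 6192 to 6613 CPM in Ctsd+/+ and 7477 to 9850 CPM in Ctsd-/- cultures. Fibroblast sums were 3.05 to 8.37 and 9.51 to 99.8 CPM, and macrophage sums 56.0 to 64.3 and 9.36 to 25.3 CPM, in the same order. The part of these in the long-term Gclc difference was not tested.

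The modifier subunit Gclm (chr3:122245557-122270732, plus strand) went the other way in long-term cells. It was at 38.5, 34.3 and 39.7 CPM in 1% FCS Ctsd+/+ cells and at 38.4, 53.8 and 42.8 CPM in 1% FCS Ctsd-/- cells, with overlap between the groups. At 12 weeks Ctsd+/+ cultures were at 24.97, 34.1 and 28.7 CPM, and Ctsd-/- cultures were at 51.2, 51.7 and 49.6 CPM, without overlap. Gclm was therefore 1.74-fold higher in long-term Ctsd-/- cells (log2 fold change 0.80 ± 0.14, adjusted p = 0.000958), while the 1% FCS difference was 0.26 ± 0.14 (adjusted p = 0.147). The difference between both genotype differences was 0.53 ± 0.20, with an adjusted p of 0.0636 (0.0214 without replicate 2 of the short-term Ctsd-/- group, 0.0344 without replicate 2 of the long-term Ctsd+/+ group, and 0.0452 in DESeq2). Gclm overlaps the pseudogene Gm6061 on its own strand by 244 exon bases and Gm17494 on the opposite strand by 296, and reads in these stretches may be left uncounted.

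Set against each other per kilobase of exon, the subunits gave a Gclc to Gclm ratio that separated the lines. The ratio was 2.38, 2.83 and 2.04 in 1% FCS Ctsd+/+ cells and 0.932, 0.8004 and 0.787 in 1% FCS Ctsd-/- cells. In long-term cells it was 3.99, 3.13 and 3.45 in Ctsd+/+ and 1.14, 1.02 and 0.797 in Ctsd-/- cultures. Every Ctsd+/+ sample thus had more Gclc than Gclm RNA per kilobase, by more than any Ctsd-/- sample. In an exact two-sided permutation test p was 0.1 at both times, which is the smallest value that 3 against 3 samples allow (adjusted over 5 comparisons, 0.167). The ratio did not separate the tumors, at 1.78, 1.03, 1.19 and 0.997 in controls and 0.865, 1.07, 1.53 and 1.80 in MMTV-cre;Ctsd-/- tumors (exact permutation p = 0.857).

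**Figure D4:**
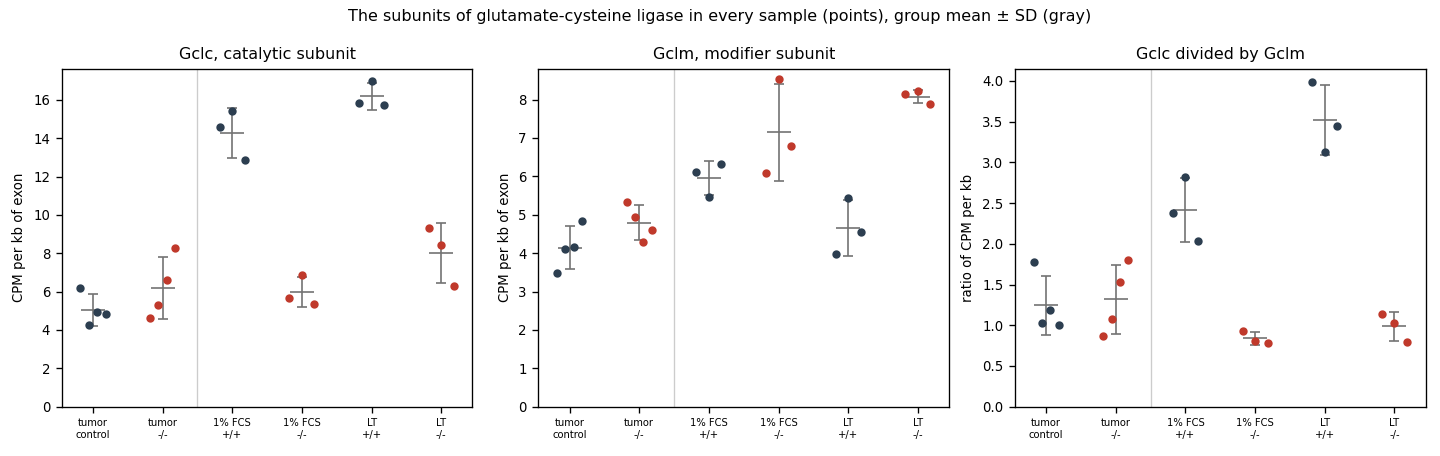
CPM per kilobase of exon of Gclc and Gclm and their ratio in each sample (axes from 0); points are samples, dark for control or Ctsd+/+ and red for Ctsd-/-, and gray bars are the group mean and SD. The ratio lies between 2.04 and 3.99 in Ctsd+/+ cells and between 0.787 and 1.14 in Ctsd-/- cells, and overlaps between the tumor groups.

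In tumors neither subunit differed at an unadjusted p of 0.1. Gclc was at 23.3, 16.0, 18.5 and 18.1 CPM in controls and at 17.4, 20.0, 24.8 and 31.2 CPM in MMTV-cre;Ctsd-/- tumors (log2 fold change 0.30 ± 0.23). Gclm was at 21.9, 25.9, 26.1 and 30.4 CPM and at 33.6, 31.1, 27.0 and 28.9 CPM (0.21 ± 0.18). The groups overlapped for both genes.

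The detoxifying enzymes Nqo1 and Gsta4 varied most of the 10 genes across the cell samples. Nqo1 (chr8:107388225-107403206, minus strand) encodes a quinone reductase that is widely used as a readout of NRF2 activity. In 1% FCS cells it was at 19.2, 20.2 and 23.6 CPM in Ctsd+/+ and at 3.85, 7.80 and 7.15 CPM in Ctsd-/- cultures. In long-term cells it was at 16.4, 39.9 and 62.6 CPM and at 17.1, 9.94 and 11.9 CPM. The short-term groups did not overlap, but in long-term cells replicate 1 of the Ctsd+/+ line lay below replicate 1 of the Ctsd-/- line. Nqo1 was 3.35-fold lower in 1% FCS Ctsd-/- cells (log2 fold change -1.75 ± 0.42, adjusted p = 0.00471) and 3.05-fold lower in 1% FCS LT Ctsd-/- cells (-1.61 ± 0.41, adjusted p = 0.00854). With only the samples of 1 code, the long-term difference was -1.06 with an adjusted p of 0.0726.

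In tumors Nqo1 was at 108, 121, 126 and 137 CPM in controls and at 122, 106, 48.7 and 31.0 CPM in MMTV-cre;Ctsd-/- animals. The SD was 11.8 CPM among controls and 43.7 CPM among MMTV-cre;Ctsd-/- tumors, since 2 of these lay within the control range or near it and the other 2 lay far below. The log2 fold change of -0.68 ± 0.38 had an unadjusted p of 0.105, just above the threshold of 0.1, and of 0.0869 in DESeq2 and 0.0477 in limma-voom. It was -1 without replicate 1 of the MMTV-cre;Ctsd-/- tumors (unadjusted p = 0.0247) and -0.87 without replicate 2 (0.0639). The 2 low tumors, replicates 3 and 4, also had the highest white adipocyte marker sums (7040 and 17579 CPM) and the highest brown adipocyte sums (125 and 164 CPM, against 11.7 to 54.8 CPM in the other tumors); their part in the result was not tested, and with white adipocyte markers as a covariate the value was 0.08. Without both low tumors, a setting chosen after seeing the data, the log2 fold change was -0.11 (unadjusted p = 0.674). As the 2 tumors left lay within the control range or near it, a value near 0 follows from that choice. Nqo1 had the highest mean per kilobase of the members in both tumor groups, whereas it ranked lower in every cell group. It was at 79.1 ± 7.6 CPM per kb in control and 49.4 ± 28.2 CPM per kb in MMTV-cre;Ctsd-/- tumors (SD, n = 4). Tumors and cells were normalized separately, so the comparison with cells is a statement of rank within each group.

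Gsta4 (chr9:78182774-78209349, plus strand) encodes the glutathione transferase that conjugates 4-hydroxynonenal, a product of lipid peroxidation. It had few reads in cells, at 5.91, 3.15 and 3.69 CPM in 1% FCS Ctsd+/+ and at 1.51, 0.794 and 0.414 CPM in 1% FCS Ctsd-/- cultures. The low group rested on 62, 29 and 14 reads. The groups did not overlap and Gsta4 was 4.63-fold lower in 1% FCS Ctsd-/- cells (log2 fold change -2.21 ± 0.63, adjusted p = 0.0122). Long-term cultures were at 4.19, 10.7 and 16.0 CPM in Ctsd+/+ and at 6.25, 6.41 and 1.72 CPM in Ctsd-/- cells, with overlap (-1.10 ± 0.58, adjusted p = 0.151). Within the Ctsd-/- line the long-term level was 5.22-fold that of the short-term one, but the adjusted p was 0.0718 in edgeR (0.00181 in DESeq2, 0.0303 without replicate 3 of the long-term group). In tumors Gsta4 was at 14.7 to 40.6 CPM in controls and at 16.0 to 44.7 CPM in MMTV-cre;Ctsd-/- animals, with overlap (log2 fold change 0.12 ± 0.38).

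G6pdx (chrX:74409483-74429194, minus strand) encodes the glucose-6-phosphate dehydrogenase that opens the oxidative pentose phosphate pathway and yields the NADPH on which glutathione and thioredoxin reduction depend. Its genotype difference differed between culture times in edgeR's fit over the 4 cell groups. In 1% FCS cells it was at 246, 187 and 172 CPM in Ctsd+/+ and at 148, 197 and 184 CPM in Ctsd-/- cultures. After 12 weeks Ctsd+/+ cells were at 355, 415 and 419 CPM, above all other samples, while Ctsd-/- cells stayed at 186, 183 and 199.8 CPM. G6pdx was 1.96-fold higher in long-term than in short-term Ctsd+/+ cells (log2 fold change 0.97 ± 0.15, adjusted p = 0.000254) and 2.09-fold lower in Ctsd-/- than in Ctsd+/+ cells at 12 weeks (-1.06 ± 0.15, adjusted p = 0.000177). In Ctsd-/- cells the change over time was 0.11 ± 0.15 (adjusted p = 0.76), and the 1% FCS genotype difference was -0.19 ± 0.15 (adjusted p = 0.295). The genotype difference at 12 weeks minus that at 10 days was -0.87 ± 0.21 on the log2 scale (adjusted p = 0.00842), and this call held in all 12 fits with 1 sample left out. With only the samples of 1 code, edgeR called such a difference for Gsta4 too, in the opposite direction (2.26, adjusted p = 0.0351). The cell marker sums of the long-term lines are given above with Gclc, and those of the short-term Ctsd+/+ samples, which stand apart, enter the change over time; their part was not tested.

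In tumors G6pdx was at 86.5, 79.1, 53.0 and 72.6 CPM in controls and at 63.4, 82.2, 163 and 223 CPM in MMTV-cre;Ctsd-/- animals. Replicates 3 and 4 of the MMTV-cre;Ctsd-/- group were thus high and replicates 1 and 2 lay among the controls (log2 fold change 0.87 ± 0.37, unadjusted p = 0.0424, adjusted p = 0.555). These are again the tumors with the highest adipocyte marker sums. With replicate 4 alone left out the log2 fold change was 0.50 (unadjusted p = 0.171) and without control replicate 3 it was 0.74 (unadjusted p = 0.109). Without both high tumors, a setting chosen after seeing the data, the log2 fold change was 0.00365 (unadjusted p = 0.99). As the 2 tumors left lay among the controls, a value near 0 follows from that choice and nothing is concluded from it. With the white adipocyte markers as a covariate the log2 fold change was -0.34 (unadjusted p = 0.453), and the part of adipocytes was not tested. G6pdx shares 418 exon bases with Ikbkg on the opposite strand, and reads that match its intronless copy G6pd2 equally well are counted for neither.

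Hmox1, Txnrd1 and Srxn1, which are inducible NRF2 targets, passed an adjusted p of 0.05 in 0 of the 6 comparisons in edgeR. Hmox1 (chr8:75093621-75100589, plus strand) encodes heme oxygenase, which cleaves heme into biliverdin, carbon monoxide and iron and is abundant in macrophages. In tumors it was at 19.4, 131, 48.2 and 109.6 CPM in controls and at 23.2, 22.3, 117 and 71.6 CPM in MMTV-cre;Ctsd-/- animals, so that both groups spanned nearly the same range (log2 fold change -0.40 ± 0.65). Without replicates 3 and 4 of the MMTV-cre;Ctsd-/- tumors, a setting chosen after seeing the data, the log2 fold change was -1.75 (unadjusted p = 0.0322). With the white adipocyte markers as a covariate over all 8 tumors it was -2.42 (unadjusted p = 0.00638, adjusted p = 0.992). Neither value passed an adjusted p of 0.05. All 8 of these markers were higher in MMTV-cre;Ctsd-/- tumors, so the covariate is not independent of genotype. In cells the 4 group means lay between 34.2 and 39.0 CPM, and each neighbor in this order overlapped with the next.

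Txnrd1 (chr10:82833951-82897712, plus strand) encodes the cytosolic thioredoxin reductase. Its 12 cell samples lay between 221 and 384 CPM, and the long-term cultures were tight, at 287, 272 and 283 CPM in Ctsd+/+ and 293, 286 and 289.6 CPM in Ctsd-/- cells (log2 fold change 0.04 ± 0.13). At 1% FCS the level was 221, 274 and 260.4 CPM in Ctsd+/+ and 261, 384 and 291 CPM in Ctsd-/- cells (0.31 ± 0.13, adjusted p = 0.0767, and 0.0211 without replicate 1 of the Ctsd-/- group). In tumors Txnrd1 had means of 96.7 ± 12.7 CPM in controls and 100.3 ± 15.5 CPM in MMTV-cre;Ctsd-/- animals (SD, n = 4).

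Srxn1 (chr2:152105516-152111376, plus strand) encodes sulfiredoxin, which restores overoxidized peroxiredoxins. Its group means in cells were 46.3 ± 9.6 and 37.9 ± 7.8 CPM at 1% FCS and 41.6 ± 4.9 and 44.3 ± 5.6 CPM at 1% FCS LT, in Ctsd+/+ and Ctsd-/- cells respectively (SD, n = 3). All these groups overlapped. In tumors the means were 21.4 ± 3.6 CPM in controls and 24.1 ± 7.4 CPM in MMTV-cre;Ctsd-/- animals (SD, n = 4; log2 fold change 0.17 ± 0.25).

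Compared per kilobase of exon, G6pdx was the most abundant of the 10 genes in all 4 cell groups, at 57.2 to 129 CPM per kb, and Gsta4 the least abundant in 3 of them, at 0.715 to 3.79 CPM per kb. In long-term Ctsd+/+ cells Gclm took the last place, at 4.65 ± 0.73 CPM per kb (SD, n = 3). Gclc and Gclm were the lowest members in both tumor groups, at 4.14 to 6.19 CPM per kb. Across the cell groups the highest group mean exceeded the lowest by 1.27-fold for Keap1, 1.14-fold for Hmox1 and 1.24-fold for Txnrd1, and by 2.72-fold for Gclc, 6.32-fold for Nqo1 and 11.4-fold for Gsta4.

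To place the members in their pathway, 7 lists of related genes were compared, 70 genes tested in tumors and 69 in cells. The lists were made by hand from textbook knowledge, with earlier results of these data known, and hold no member. In tumors 0 of 70 passed an adjusted p of 0.05 in edgeR, and at an unadjusted p of 0.1 the MMTV-cre;Ctsd-/- tumors had higher values for 12 and lower values for 4, against 8.44% and 8.27% of all genes. In cells 18 of 69 were higher and 15 lower in Ctsd-/- than in Ctsd+/+ cells at 1% FCS, against 23.5% and 25.1% of all genes, and 17 were higher and 22 lower at 1% FCS LT, against 20.5% and 19.1%. Over culture time 24 were higher and 14 lower in Ctsd+/+ cells, against 23.0% and 23.4% of all genes, and 5 were higher and 0 lower in Ctsd-/- cells, against 1.57% and 0.810% (15 and 11 at an unadjusted p under 0.1). These shares of all genes are the background of the counts per list that follow. The median log2 fold change of the lists together was 0.05 at 1% FCS and -0.02 at 1% FCS LT, against medians of 0.000246 and 0.0145 over all genes tested.

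**Figure D5:**
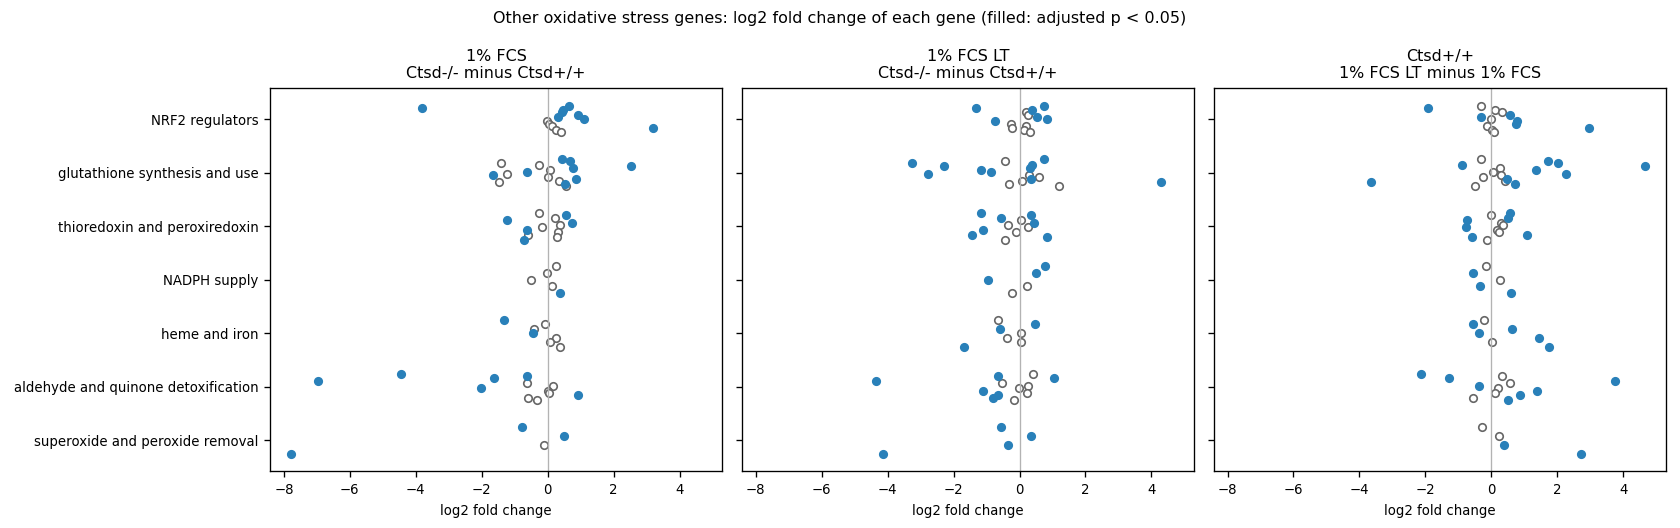
Log2 fold change (x axis) of each tested gene in 7 lists of oxidative stress genes (rows) in both genotype comparisons of cells and over culture time in Ctsd+/+ cells; filled points have an adjusted p under 0.05 in edgeR. Filled points lie on both sides of 0 in most lists, and the aldehyde and quinone list and the superoxide and peroxide list hold the points farthest to the left in both genotype comparisons.

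Among other regulators of the pathway, 7 of 13 were higher and 1 lower in 1% FCS Ctsd-/- cells (23.5% and 25.1% of all genes), and 4 were higher and 2 lower in long-term Ctsd-/- cells (20.5% and 19.1% of all genes). Maff, a small MAF partner of NRF2, was at means of 34.3 and 73.2 CPM in 1% FCS Ctsd+/+ and Ctsd-/- cells and at 33.8 and 60.5 CPM in long-term cells, which was higher in Ctsd-/- cells both times (log2 fold change 1.09 ± 0.22 and 0.84 ± 0.22). Bach2, a BACH family repressor, was lower in Ctsd-/- cells, at 1.25 against 17.5 CPM in 1% FCS and 1.85 against 4.65 CPM in 1% FCS LT cells. Nfe2l3, which encodes the related factor NRF3, was higher in Ctsd-/- cells at 1% FCS (13.6 against 1.47 CPM) and had means of 9.87 and 11.5 CPM in Ctsd-/- and Ctsd+/+ cells at 12 weeks, and the difference between culture times was itself called (adjusted p = 1.53e-05). In the short-term comparison the Ctsd+/+ samples are those with the low epithelial marker sums.

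Of 16 tested genes of glutathione synthesis and use, 6 were higher and 2 lower in 1% FCS Ctsd-/- cells (23.5% and 25.1% of all genes) and 5 were higher and 5 lower in long-term Ctsd-/- cells (20.5% and 19.1%). The extremes were weakly expressed. The transferase Mgst2 was at means of 3.28 CPM in long-term Ctsd-/- and 0.164 CPM in long-term Ctsd+/+ cells, whereas the peroxidase Gpx2 (0.407 against 2.01 CPM) and the glutathione-cleaving Ggt1 (0.157 against 1.53 CPM) were lower in Ctsd-/- cells. In the list of thioredoxins and peroxiredoxins 3 of 12 were higher and 4 lower in long-term Ctsd-/- cells, where 20.5% and 19.1% of all genes were. Prdx1, the abundant cytosolic peroxiredoxin, fell from 768 CPM in Ctsd+/+ to 344 CPM in Ctsd-/- cells (log2 fold change -1.16 ± 0.11), and Txnip, the inhibitor of thioredoxin, from 169 to 62.1 CPM (-1.45 ± 0.30). Prdx4, the peroxiredoxin of the endoplasmic reticulum, was lower in Ctsd-/- cells at 1% FCS (32.6 against 76.5 CPM) and had means of 46.9 and 45.6 CPM at 12 weeks.

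The NADPH list holds the genes closest in function to G6pdx. Of its 5 genes, 2 were higher and 1 lower in long-term Ctsd-/- cells, where 20.5% and 19.1% of all genes were. In long-term Ctsd-/- cells Pgd, the next NADPH-forming enzyme of the pentose phosphate pathway, was lower (163 against 313 CPM, log2 fold change -0.94 ± 0.20), Idh1 was higher (206 against 119.8 CPM, 0.78 ± 0.15), and the transketolase Tkt had means of 562 and 656 CPM (-0.22 ± 0.12, adjusted p = 0.152). In tumors 3 of the 5 genes of this list had an unadjusted p under 0.1, all higher, against 8.44% of all genes, among them Tkt (1098 against 449.8 CPM) and Pgd (401 against 254 CPM), which is the direction of the adipocyte markers in the same tumors.

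In the heme and iron list 2 of 7 genes were lower in Ctsd-/- cells at each culture time (25.1% of all genes at 1% FCS and 19.1% at 1% FCS LT), and 1 was higher in long-term cells (20.5%). The iron exporter Slc40a1 was at 31.2 CPM in long-term Ctsd-/- cells against 100.9 CPM in Ctsd+/+ cells (log2 fold change -1.69 ± 0.19). The ferritin heavy chain Fth1 was higher in long-term than in short-term Ctsd+/+ cells (1196 against 442 CPM). In Ctsd-/- cells its mean was higher in long-term cultures too (923 against 530 CPM), though 0 genes of this list were called there over time. The porphyrin transporter Abcb6 was lower in 1% FCS Ctsd-/- cells (0.330 against 0.827 CPM).

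Of the genes of aldehyde and quinone detoxification, the group to which Nqo1 belongs by function, 5 of 12 were lower and 1 higher in Ctsd-/- cells at each culture time, against 25.1% lower and 23.5% higher of all genes at 1% FCS and 19.1% and 20.5% at 1% FCS LT. The median log2 fold change of the list was -0.62 at 1% FCS and -0.36 at 1% FCS LT, and that of all genes 0.000246 and 0.0145. Aldh3a1, an aldehyde dehydrogenase, was at 8.79 to 30.4 CPM in 1% FCS Ctsd+/+ cells and at 0.0821 to 0.207 CPM (3 to 8 reads) in 1% FCS Ctsd-/- cells. In long-term cells it was at 172 to 341 CPM in Ctsd+/+ and 0.629 to 32.9 CPM in Ctsd-/- cultures, so that it was lower in Ctsd-/- cells both times and higher after 12 weeks in both lines. Cbr3, a carbonyl reductase, was lower in Ctsd-/- cells at 1% FCS (0.412 against 1.69 CPM) and at means of 1.91 and 1.93 CPM at 12 weeks, and Adh7, an alcohol dehydrogenase, was lower at 1% FCS as well (0.171 against 3.798 CPM). Of the 4 genes that remove superoxide and hydrogen peroxide, 1 was higher and 2 lower in Ctsd-/- cells at 1% FCS (23.5% and 25.1% of all genes). At 1% FCS LT 1 was higher and 3 were lower (20.5% and 19.1%). Among them the extracellular dismutase Sod3 and catalase (Cat) were lower and the cytosolic dismutase Sod1 was higher at both times. Sod3 was at 0.0487 to 0.0887 CPM (2 to 3 reads) in 1% FCS Ctsd-/- cells against 5.68 to 25.7 CPM in Ctsd+/+ cells, and Cat at 56.3 against 97.4 CPM at 1% FCS and 53.9 against 79.9 CPM at 1% FCS LT. In tumors both went the other way. There 3 of these 4 genes had an unadjusted p under 0.1 in edgeR, all higher in MMTV-cre;Ctsd-/- tumors, against 8.44% of all genes. Among them were Sod3 (82.0 against 28.8 CPM) and Cat (402 against 212 CPM), and 0 passed an adjusted p of 0.05.

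Last, the genes with the most similar profile to each member over the 12 cell samples were looked up, by the root mean square distance of centered log2 CPM. Such likeness is a description over 4 groups of cultures and says nothing of shared control. For G6pdx these were Pgm1 (0.149, against a root mean square of 0.494 for the profile of G6pdx itself) and Zmiz2, for Gclc Zfp362 (0.150 against 0.615) and Unk, and for Gclm Crat (0.130 against 0.335) and Ndufa10. The gene nearest to Nqo1 was Gm17046, a processed pseudogene (0.516 against 1.05), and the one nearest to Gsta4 was Rhbdl3 (0.548 against 1.43). No member was among the 2 nearest genes of another member: the nearest member of Gclc was G6pdx at 0.448, that of Gclm was Txnrd1 at 0.314, and the smallest distance between 2 members was that of Nfe2l2 and Keap1, 0.208. The profiles of Nfe2l2 and Keap1 themselves had root mean squares of only 0.238 and 0.168. Their distance was thus larger than the variation of Keap1 itself. For the others the 2 nearest genes were Trim25 and Foxk1 (Nfe2l2), Marc2 and Egln2 (Keap1), Atp6v1g1 and Alg5 (Hmox1), Timm23 and Sf3b4 (Txnrd1), Uck2 and Mrpl27 (Srxn1), and Rhbdl3 and Pard3b (Gsta4).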

How the data were processed

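Total RNA of 8 tumors and 12 cell samples was sequenced by the authors, who, per the study's methods and the labels, trimmed the reads, aligned them with STAR to mm10 (GRCm38) and deposited raw gene counts per sample in 3 columns, without strand and for either strand. Tumor counts were taken without strand and cell counts from the reverse strand column, as the read shares on the strands required. Depth was 49725437 to 64291587 counts per tumor and 33622831 to 40239762 per cell sample, and gives the precision of low genes. Reads that STAR assigned to no gene (unmapped, multimapping, ambiguous or outside genes) made up 24.7% to 32.7% of the reads per tumor and 14.8% to 19.0% per cell sample and were left out of totals and tests.

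Samples were grouped by their labels. Counts were filtered (filterByExpr), TMM-normalized and tested with edgeR 4.0.16 (quasi-likelihood F test, R 4.3.3) in 1 fit for tumors and 1 for the 4 cell groups, over all genes, with Benjamini-Hochberg adjustment. SE is that of the log2 fold change. Called means an adjusted p under 0.05, and for tumors an unadjusted p under 0.1, as in the study, is given too. Alternatives were limma-voom (3.58.1), DESeq2 (1.42.0), other filters and scaling, the other count column, a replicate block, marker covariates, samples of 1 code, 2 groups alone, and leaving out each sample. Leaving out MMTV-cre;Ctsd-/- tumors 3 and 4 was chosen after seeing the data. The fits were tested on simulated data.

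Of 45706 gene identifiers, 45143 matched GENCODE M21 (GRCm38), which gave symbols, positions and exon lengths. The members and all lists were chosen with earlier results of these data known. Named from each pathway list were up to 3 genes with the largest called changes whose groups did not overlap, and for each member the 2 genes nearest in profile over the cell samples. Replicates were compared and no pair agreed within sampling noise. The labels do not say that same-numbered samples pair, nor what the code in the descriptions that some of them share stands for. Repeat cultures come from 1 line per genotype, so p-values for cells measure the spread between cultures.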

Additional observations from a re-analysis of the deposited data

Results flagged for a closer look

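The difference between the genotype effects at 12 weeks and at 10 days (Ctsd-/- minus Ctsd+/+ at 1% FCS LT, minus the same at 1% FCS) was tested in edgeR's fit over the 4 cell groups, and 12 of the genes named in the report passed an adjusted p of 0.05. G6pdx was the member among them, with a log2 difference of -0.87 (adjusted p = 0.00842). The signed difference moved toward higher values in Ctsd-/- cells for Bach2 (2.47), Mgst2 (5.75), Prdx4 (1.27), Adh7 (4.87), Cbr3 (2.00) and Sod3 (3.66). It moved toward lower values for Nfe2l3 (-3.42), Gpx2 (-4.82), Prdx1 (-0.90), Tkt (-0.60) and Slc40a1 (-2.06). Such a move can narrow the gap between Ctsd-/- and Ctsd+/+ cells. For Bach2 the means were 1.25 against 17.5 CPM at 1% FCS and 1.85 against 4.65 CPM at 1% FCS LT. Gpx2 rested on at most 5 reads per sample in 1% FCS Ctsd+/+ cells and Mgst2 on at most 11 in long-term Ctsd+/+ cells. In 1% FCS Ctsd-/- cells Sod3 rested on at most 3, Adh7 on at most 8 and Cbr3 on at most 24. The values of these genes therefore depend on few reads. The short-term Ctsd+/+ samples, which enter every such difference, had fibroblast marker sums of 1178 to 3310 CPM and epithelial sums of 1071 to 2223 CPM, and their part in these differences was not tested. No sample of a tumor group stood apart from the other 3 by Dixon's criterion, for any of 22 sets of values examined. With 4 samples this criterion can miss 2 that deviate together, so nothing is concluded from it for MMTV-cre;Ctsd-/- tumors 3 and 4.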

How the results depend on the processing

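Among the settings other than leaving out a sample, 499 of the members' log2 fold changes kept their direction and their side of the threshold, 21 passed it only under the alternative, 7 lost it and 13 changed sign; with 1 sample left out these counts were 642, 13, 7 and 18. The causes were not tested. The changes of sign in tumors came with the white adipocyte covariate (Nqo1 0.0761, Gclc -0.0254, Txnrd1 -0.0372, Srxn1 -0.44, Gsta4 -0.52, G6pdx -0.34) and without MMTV-cre;Ctsd-/- tumors 3 and 4, a setting chosen after seeing the data (Gclc -0.0199, Srxn1 -0.25, Gsta4 -0.32). With the samples of 1 code they were G6pdx at 1% FCS (0.0872) and over time in Ctsd-/- cells (-0.045), Keap1 at 1% FCS LT (0.00062) and Hmox1 over time in Ctsd+/+ cells (-0.0425). Members lower in tumors at an unadjusted p under 0.1 went from 0 to 1 in DESeq2, limma-voom, with DESeq2 size factors, without a filter, with a replicate block, with the other count column, with either marker covariate and without tumors 3 and 4. That member was Hmox1 with the white adipocyte covariate and without tumors 3 and 4, and Nqo1 in the other settings. Members higher in tumors went from 2 to 1 with the block, and to 0 with the white adipocyte covariate and without tumors 3 and 4. Calls went from 0 to 1 for members higher at 1% FCS (samples of 1 code), higher over time in Ctsd-/- cells (DESeq2, no filter, samples of 1 code), lower over time in Ctsd+/+ cells (DESeq2, replicate block) and with a higher difference between culture times (DESeq2, replicate block, samples of 1 code).

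With each sample left out in turn, members higher in tumors numbered 1 to 2 and lower 0 to 1, members higher at 1% FCS 0 to 1, higher over time 0 to 2 in Ctsd-/- and 1 to 5 in Ctsd+/+ cells, lower over time in Ctsd+/+ cells 0 to 1, and with a higher difference between culture times 0 to 1. Log2 fold changes that crossed 0 were those of Txnrd1 (-0.0277 to 0.14) and Gsta4 (-0.16 to 0.37) in tumors, Hmox1 at 1% FCS (-0.0604 to 0.30), Nfe2l2 (-0.18 to 0.0669) and Keap1 (-0.0718 to 0.0241) at 1% FCS LT, Nfe2l2 (-0.0139 to 0.23), Hmox1 (-0.40 to 0.0211), Txnrd1 (-0.22 to 0.0686) and G6pdx (-0.00738 to 0.20) over time in Ctsd-/- cells, and the Nqo1 difference between culture times (-0.23 to 0.63).

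Over all genes, tumors had 1 with a higher and 0 with a lower level past an adjusted p of 0.05, which were 204 and 61 in DESeq2, 24 and 9 without a filter, 2 higher in limma-voom and 0 with at least 10 counts in every sample. At an unadjusted p under 0.1 they were 1572 and 1540, against 2703 and 2734 without a filter, 711 lower with the block, 671 and 540 with the white adipocyte covariate, 510 and 595 without tumors 3 and 4, and 980 to 2156 and 827 to 2309 with 1 sample left out. Over time in Ctsd-/- cells they were 238 and 123, against 664 and 413 in DESeq2, 492 and 188 without a filter, 156 higher with at least 10 counts, 515 and 241 with samples of 1 code, 204 lower in a fit of these 2 groups, and 31 to 329 and 26 to 198 with 1 sample left out.

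Same-numbered samples were checked for shared deviations. Their correlations ranged from -0.30 to -0.00755 in tumors and from -0.29 to 0.36 in cells, and in 0 of 7 pairs of groups was every one over 0.1, so by this criterion the numbers were not taken to pair the samples. The genotypes at 1% FCS came nearest, at 0.36, 0.09997 and 0.299. Their replicates 1 share a code, as do replicates 3 of both long-term groups, so same-numbered samples are not independent of the code there. Under the replicate block Nqo1 in tumors was -0.88 (unadjusted p = 0.0752), Gclm over time in Ctsd+/+ cells was -0.37 (adjusted p = 0.0446) and its difference between culture times was 0.56 (adjusted p = 0.0489), and the number of members called between genotypes in cells stayed at 3 at 1% FCS and 4 at 1% FCS LT. Depth limits mainly Gsta4 in 1% FCS Ctsd-/- cells.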
